A study of Mus musculus with 4 samples.

Results

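The integrated stress response and serine synthesis genes described here are Atf4, Ddit3, Trib3, Atf5, Chac1, Asns, Phgdh, Psat1, Psph and Hspa5. They were chosen by gene symbol, as genes of the ATF4 pathway and of the synthesis of serine and asparagine. All 10 symbols were found, each once, among the 22328 genes of both deposited tables. The study sequenced poly(A)-selected RNA from 4 mouse samples, 1 library per group. F1m-GCS is hippocampus from offspring of dams whose diet held 5 g/kg choline chloride between embryonic day 9 and birth, and F1m-CON is hippocampus from offspring of dams kept at 1.1 g/kg. Both kinds of offspring ate a basal diet after birth and were tested for behaviour at 2 months of age. The sources used here do not say whether an F1m library holds 1 animal or several. HT22 SUP and HT22 CON are cultures of HT22, an immortalised mouse hippocampal neuronal line, kept for 48 h in 70 µM and 5 µM choline chloride, both in medium with fetal bovine serum. With 1 library per group no difference below has a replicate check or a test, and every bracket gives the 95% counting interval of a log2 ratio, which covers counting error only.

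ATF4 is a basic leucine zipper transcription factor at the centre of the integrated stress response. Kinases that sense amino acid shortage, unfolded protein, viral RNA or lack of haem phosphorylate the translation factor eIF2α, which slows general translation while favouring translation of the Atf4 mRNA, so the mRNA level of Atf4 is not a measure of its protein. ATF4 then activates genes for amino acid transport and synthesis, among them the serine pathway, in which Phgdh, Psat1 and Psph act in sequence on a glycolytic intermediate. Serine supplies one-carbon units to the folate cycle, and choline supplies methyl groups through betaine.

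ATF4 binds, with C/EBP partners, to composite elements of the form TGATGNAA, and the endoplasmic reticulum stress element ERSE joins CCAAT and CCACG across a spacer of 9 bases. Both were searched on both strands of the RefSeq promoter windows (GRCm38.p6, 250 bases before to 50 bases after a gene start), which matched 10 of the 10 genes. TGATGNAA was found in the windows of 3 genes, Chac1, Trib3 and Asns, and in 3.97% of all 32851 windows. ERSE was found in the window of Hspa5 and in 0.119% of all windows. The sequences with these letters are shown because they hold the letters searched for. They read 5′ to 3′ on the strand of the gene, with the motif in capitals.
Chac1, chr2:119350992-119351228, plus strand, upstream of the annotated gene: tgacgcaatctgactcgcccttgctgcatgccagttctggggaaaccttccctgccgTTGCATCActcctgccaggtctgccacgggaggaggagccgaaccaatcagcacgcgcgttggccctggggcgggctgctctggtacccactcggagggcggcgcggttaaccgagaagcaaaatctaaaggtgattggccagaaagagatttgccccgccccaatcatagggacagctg
Trib3, chr2:152344028-152344057, minus strand: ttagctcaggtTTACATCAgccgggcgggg
Asns, chr6:7693214-7693243, minus strand: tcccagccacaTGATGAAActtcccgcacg
Hspa5, chr2:34772020-34772049, plus strand: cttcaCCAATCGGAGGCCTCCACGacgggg
The matches in Hspa5 and Asns lie before the RefSeq start but inside an exon annotated in GENCODE M21. The match in Trib3 lies 15 to 22 bases after the RefSeq start, and that in Chac1 lies before the start. Neither the Trib3 nor the Chac1 match lies in an exon annotated for its gene in GENCODE M21. The other 6 members have no match. In Chac1 and Trib3 the match lies on the strand opposite to the gene, and in Asns and Hspa5 on the same strand. A match is a description of the letters, and genes with no match have none only inside these windows.

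All 10 genes had a higher level in both HT22 libraries than in both hippocampus libraries. Levels are compared between genes as RPKM, the authors' reads per kilobase of coding length, scaled to uniquely mapped reads. Atf4 (ENSMUSG00000042406, mm10 chromosome 15, 80255184 to 80257540) stood at 345 RPKM in HT22 SUP, 482 in HT22 CON, 104 in F1m-GCS and 110 in F1m-CON. Psat1 (chromosome 19, 15904678 to 15947337) stood at 375 RPKM in HT22 SUP, 450 in HT22 CON, 92.6 in F1m-GCS and 107 in F1m-CON. Hspa5 (chromosome 2, 34771970 to 34776531), the chaperone BiP of the endoplasmic reticulum, had 329 RPKM in HT22 SUP, 393 in HT22 CON, 89.2 in F1m-GCS and 93.3 in F1m-CON. These were the 3 highest members in each of the 4 libraries. Asns (chromosome 6, 7675169 to 7693254), which makes asparagine from aspartate, was the fourth in every library, with 118 RPKM in HT22 SUP, 137 in HT22 CON, 53.7 in F1m-GCS and 57.4 in F1m-CON.

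The lower members kept less of a common order. Ddit3 (chromosome 10, 127290774 to 127296288), which encodes the pro-apoptotic factor CHOP, had 82.9 RPKM in HT22 SUP, 83.4 in HT22 CON, 33.8 in F1m-GCS and 35.9 in F1m-CON. Atf5 (chromosome 7, 44812257 to 44816658), a related leucine zipper factor, had 87.6 RPKM in HT22 SUP, 109 in HT22 CON, 19.5 in F1m-GCS and 20.5 in F1m-CON. Atf5 was therefore above Ddit3 in both HT22 libraries and below it in both hippocampus libraries. Psph (chromosome 5, 129765558 to 129787252), the phosphatase of the last step to serine, had 61.0 RPKM in HT22 SUP, 78.0 in HT22 CON, 28.6 in F1m-GCS and 32.1 in F1m-CON. Chac1 (chromosome 2, 119351229 to 119354381), which degrades glutathione, had 43.3 RPKM in HT22 SUP, 61.1 in HT22 CON, 9.56 in F1m-GCS and 10.9 in F1m-CON. Phgdh (chromosome 3, 98313170 to 98339990), the dehydrogenase of the first step to serine, had 51.6 RPKM in HT22 SUP, 50 in HT22 CON, 11.9 in F1m-GCS and 10.7 in F1m-CON. Chac1 was above Phgdh in both CON libraries and below it in HT22 SUP and F1m-GCS. Trib3 (chromosome 2, 152337422 to 152344032), a pseudokinase that restrains ATF4 signalling, was the lowest everywhere, with 18.6 RPKM in HT22 SUP, 25.5 in HT22 CON, 0.441 in F1m-GCS and 0.407 in F1m-CON.

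The level of Phgdh is the least certain. In GENCODE M21, 63.1% of the 50-base stretches of its longest coding transcript also occur in other annotated genes, led by the predicted gene Gm7901. Reads that lie wholly in shared sequence may not be placed uniquely, and how many reads this affected was not tested. For Psph the share was 23.9%, all in the overlapping gene Cct6a on the opposite strand, and for Ddit3, Atf5 and Psat1 it was 2.26%, 2.04% and 1.21%. The other 5 genes shared none. The library kit as labelled does not mark strand, so reads from such overlaps cannot be assigned. The RPKM of Psat1 was 7.26 times that of Phgdh in HT22 SUP, 9.01 times in HT22 CON, 7.78 times in F1m-GCS and 10.0 times in F1m-CON, and the sharing bears on each of these ratios.

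**Figure D1:**
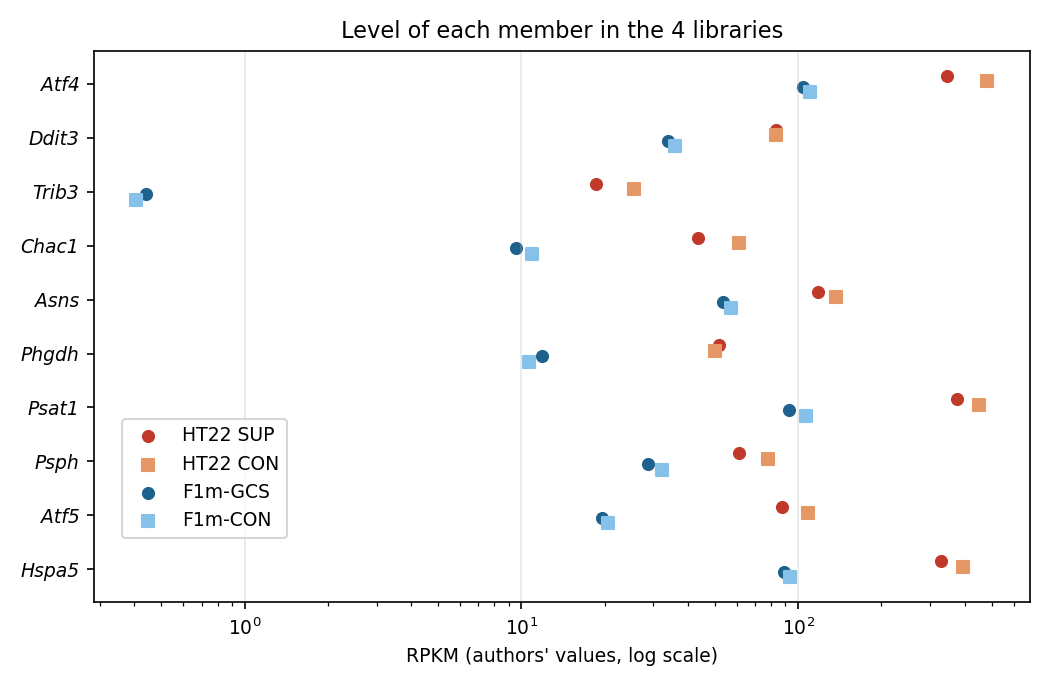
Level of each gene in RPKM (horizontal, log scale) in HT22 SUP, HT22 CON, F1m-GCS and F1m-CON, 1 library each, 1 symbol per library. For every gene both HT22 symbols lie to the right of both hippocampus symbols, and Trib3 has the widest gap, with 18.6 and 25.5 RPKM in HT22 SUP and HT22 CON against 0.441 and 0.407 RPKM in F1m-GCS and F1m-CON.

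After scaling the 4 libraries together to CPM, the usual count scale set by the total of reads in genes and not by gene length, the mean of the HT22 libraries over the mean of the hippocampus libraries lay between 2.42-fold for Psph and 47.2-fold for Trib3. Trib3 had 30.1 CPM in HT22 SUP and 35.5 CPM in HT22 CON, against 0.624 CPM in F1m-GCS and 0.570 CPM in F1m-CON, where it rests on 18 and 17 reads. Chac1 was 5.35-fold higher, Atf5 5.19-fold, Phgdh 4.81-fold, Psat1 4.4-fold, Hspa5 4.2-fold and Atf4 4.07-fold. Ddit3 and Asns, at 2.54-fold and 2.44-fold, were near Psph. All 10 genes were at least 2-fold higher with no overlap between the HT22 and hippocampus libraries, as were 27.4% of 14012 genes with at least 50 reads in some library, while 36.2% were lower by the same rule. The median log2 ratio was 2.10 over the 10 genes and -0.12 over all 14012. The 10 genes were at least 2-fold higher also with total counts, DESeq2 size factors or uniquely mapped reads as the scaling. A cell line and a tissue differ in cell types, growth and preparation at once, which cannot be told apart here, nor can fewer cells of a type be told apart from less RNA per cell in bulk samples.

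The members differed little between F1m-GCS and F1m-CON hippocampus. Of 9 genes that reached 50 reads in either library and count as measured, 0 were at least 1.5-fold higher or lower in F1m-GCS with an interval that excluded 0. Over all 13392 measured genes 1.8% were higher and 0.904% lower by this rule, so a count of 0 among 9 genes is near the background. The 9 log2 ratios ran from -0.19 to 0.18, with a median of -0.07 against -0.0042 for all measured genes. Of the 9, 8 were below 0 and 1 above, where 51.2% and 48.8% of all measured genes were. With length and GC content adjusted for, 6 were below 0 and 3 above. All 6 choroid plexus markers were below 0 too, at a median of -0.52, summing to 1670 CPM in F1m-GCS and 1940 CPM in F1m-CON. Below 0 were also 7 of 8 microglia, 5 of 6 oligodendrocyte, 7 of 9 neuron and 6 of 8 astrocyte markers. The medians of these 4 lists ran from -0.11 to -0.02. Of 5 endothelium markers 1 was below 0. The part of any of these markers in the members' ratios was not tested.

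Among the serine enzymes, Psat1, the aminotransferase of the middle step, had 3947 reads in F1m-GCS and 4664 in F1m-CON, a log2 ratio of -0.19 (-0.25 to -0.13). This was the lowest ratio of the members and stood at percentile 11.9 of measured genes. Psph had 742 reads in F1m-GCS and 853 in F1m-CON, at -0.15 (-0.29 to -0.0033). Phgdh had 730 reads in F1m-GCS and 671 in F1m-CON, at 0.18 (0.02 to 0.33), the single measured member above 0. The serine enzymes thus lay on both sides of 0, with intervals that excluded 0 in each case, although with length and GC content adjusted for Psph had -0.06 (-0.20 to 0.08) and its interval included 0. Over the 9 measured members 1 interval lay above 0 and 3 below, against 20.9% and 18.8% of all measured genes. With DESeq2 size factors 4 lay below 0, Atf4 among them. With total counts or uniquely mapped reads 5 lay below 0, Atf4 and Hspa5 among them. Phgdh is known in brain mainly from astrocytes and neural progenitors, and 8 astrocyte markers summed to 5130 CPM in F1m-GCS and 5060 CPM in F1m-CON, 6 of them below 0 and none past 1.5-fold. Their part in the Phgdh value was not tested.

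Atf4 itself had 4197 reads in F1m-GCS and 4543 in F1m-CON, a log2 ratio of -0.06 (-0.12 to 0.0008). Asns had 3467 and 3797 reads in F1m-GCS and F1m-CON, at -0.08 (-0.14 to -0.01). Ddit3 had 657 reads in F1m-GCS and 715 in F1m-CON, at -0.07 (-0.22 to 0.09). All 3 lay between percentiles 30.2 and 34.4 of measured genes. Chac1, with 246 reads in F1m-GCS and 287 in F1m-CON, had -0.17 (-0.42 to 0.08). Atf5, with 636 and 685 reads in F1m-GCS and F1m-CON, had -0.05 (-0.21 to 0.10). Hspa5 had 6724 and 7206 reads in F1m-GCS and F1m-CON and -0.05 (-0.09 to 0.0025). Among the 9 measured genes the interval bounds farthest from 0 were -0.42 for Chac1 and 0.33 for Phgdh, 1.34-fold lower and 1.26-fold higher. Trib3, with 18 reads in F1m-GCS and 17 in F1m-CON, was not measured, and its interval of -0.90 to 1.18 allows 1.5-fold either way and also 2-fold higher.

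In HT22 cells the members lay on both sides of 0, with Atf4, Chac1 and Trib3 at one end and Ddit3 and Phgdh at the other. Of the 10 genes 0 were at least 1.5-fold higher or lower in HT22 SUP, while 5.13% of 10854 measured genes were higher and 2.89% lower by that rule. The log2 ratios ran from -0.28 to 0.26, with a median of -0.07, against -0.05 for all measured genes. Of the 10, 3 were above 0 and 7 below, where 41.9% and 58.1% of all measured genes were. The interval lay above 0 for 2 and below 0 for 7, against 22.4% and 32.7% of all measured genes. This balance depends on the processing, since with length and GC content adjusted for the interval lay above 0 for 5 members and below 0 for 2, and with uniquely mapped reads above 0 for 0 and below 0 for 8. Neuron markers differed between these libraries as well, with 6 of 7 measured markers at least 1.5-fold higher in HT22 SUP and 1 lower, and 9 markers summing to 162 CPM in HT22 SUP and 76.2 CPM in HT22 CON. Neuron markers in hippocampus summed to 9910 CPM in F1m-GCS and 10100 CPM in F1m-CON, and none of the 9 was at 0 reads in any library. Their level in HT22 cells is thus low for a line labelled as hippocampal neuron cells. After subtraction of 0.768% of the hippocampus level from HT22 SUP and 0.321% from HT22 CON, the median of the members was again -0.07. The part of the neuron markers in the members' ratios was not tested.

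Atf4 had 7575 reads in HT22 SUP and 12703 in HT22 CON, a log2 ratio of -0.26 (-0.30 to -0.22) after scaling for library size. Chac1 had 608 reads in HT22 SUP and 1032 in HT22 CON, at -0.28 (-0.43 to -0.13). Trib3 had 414 reads in HT22 SUP and 683 in HT22 CON, at -0.24 (-0.42 to -0.06). These 3 lay together at percentiles 17.5 to 21.8 of measured genes. Ddit3 lay on the other side, with 879 reads in HT22 SUP and 1062 in HT22 CON and a log2 ratio of 0.21 (0.08 to 0.34). Asns, with 4170 and 5785 reads in HT22 SUP and HT22 CON, had 0.01 (-0.05 to 0.07). CHOP, the product of Ddit3, is known to act with ATF4 on Trib3 and Chac1.

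The serine enzymes again did not share a direction. Phgdh had 1729 reads in HT22 SUP and 2013 in HT22 CON, the highest ratio of the members at 0.26 (0.17 to 0.36), percentile 86.1. Psat1 had 8720 reads in HT22 SUP and 12595 in HT22 CON, at -0.05 (-0.09 to -0.0067), and Psph had 864 and 1329 reads in HT22 SUP and HT22 CON, at -0.14 (-0.26 to -0.01). Phgdh was thus the highest of the serine enzymes in both choline comparisons. It is also the gene with 63.1% of its 50-base stretches in other genes, and the part of this sharing in the order was not tested. Atf5 had 1560 reads in HT22 SUP and 2329 in HT22 CON, at -0.09 (-0.19 to -0.0007). Hspa5 had 13519 reads in HT22 SUP and 19413 in HT22 CON, at -0.04 (-0.07 to -0.0060).

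**Figure D2:**
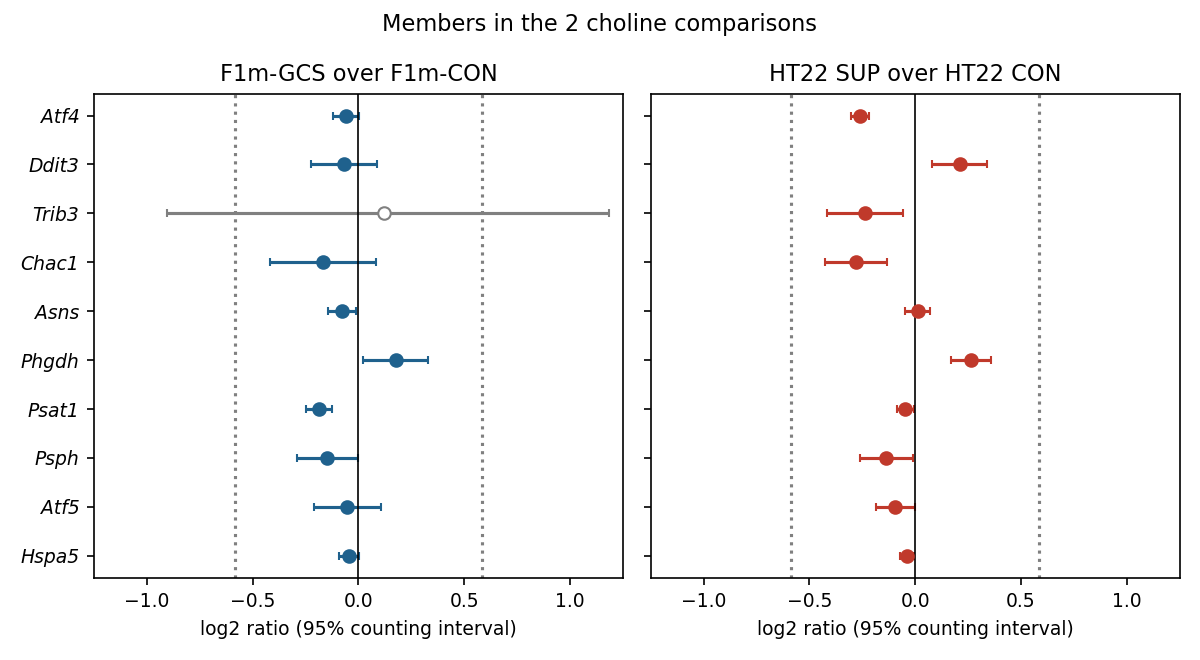
Log2 ratio (horizontal) of each gene in F1m-GCS over F1m-CON on the left and HT22 SUP over HT22 CON on the right, with 95% counting intervals and dotted lines at 1.5-fold. The open grey symbol is Trib3 in hippocampus, on 18 and 17 reads. No filled symbol reaches a dotted line, and the HT22 values spread from -0.28 for Chac1 to 0.26 for Phgdh.

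The HT22 directions near 0 depend on the total that the libraries are scaled to. Reads in genes made up 63.1% of uniquely mapped reads in HT22 SUP and 72.9% in HT22 CON, against 79.0% in F1m-GCS and 79.4% in F1m-CON. Scaled to uniquely mapped reads, the median of all measured genes in HT22 cells was -0.27 in place of -0.05. On that scale Atf4 had -0.48 (-0.52 to -0.44), Trib3 -0.46 and Chac1 -0.50, while Ddit3 had -0.0074 (-0.14 to 0.12) and Phgdh 0.05 (-0.05 to 0.14). Relative to the median of all genes the order of the members is the same. The ratios also moved with coding length. In the hippocampus the median was -0.09 in the shortest of 10 length groups and 0.11 in the longest. In HT22 cells the spread was wider, with a median of 0.29 in the longest group and -0.12 to 0.02 in the others. All members are in the 7 shorter groups. With length and GC content both adjusted for, Atf4 had -0.18, Chac1 -0.26 and Phgdh 0.31, and Asns, Psat1 and Hspa5 had 0.13, 0.08 and 0.08. Intervals that then included 0 were those of Trib3, at -0.17 (-0.35 to 0.004), Psph, at -0.10 (-0.22 to 0.03), and Atf5, at -0.04 (-0.13 to 0.06).

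Ratios between members within a library need no library scaling, but those given here were not adjusted for length or GC content. For Atf4, Ddit3, Phgdh and Asns the medians of their length groups in HT22 cells were -0.12, -0.0023, -0.10 and -0.08. Ddit3 reads were 11.6% of Atf4 reads in HT22 SUP and 8.36% in HT22 CON, a log2 difference of 0.47 (0.34 to 0.61). Phgdh reads were 22.8% of Atf4 reads in HT22 SUP and 15.8% in HT22 CON, a difference of 0.53 (0.42 to 0.63). For Asns the shares were 55.0% in HT22 SUP and 45.5% in HT22 CON, a difference of 0.27 (0.20 to 0.34). Relative to Atf4, 6 of the 9 other members were higher in HT22 SUP with an interval that excluded 0, as were 58.1% of 10853 other measured genes, so the count is near the background that the low ratio of Atf4 sets. They were Ddit3, Phgdh, Asns, Psat1, Atf5 and Hspa5, and 0 members were lower, against 5.28% of other genes. Chac1 and Trib3 lay close to Atf4, with shares of 8.03% and 5.47% in HT22 SUP and of 8.12% and 5.38% in HT22 CON, and differences of -0.02 (-0.17 to 0.13) and 0.02 (-0.16 to 0.21). In the hippocampus the corresponding differences ran from -0.13 to 0.24, and the intervals of Phgdh, at 0.24 (0.07 to 0.40), and Psat1, at -0.13 (-0.21 to -0.04), excluded 0, as did those of 29.1% of other measured genes above 0 and 6.83% below.

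The authors' deposited table for the hippocampus gives log2 fold changes that differ from those of the counts with an SD of 4.06e-05 over 11111 genes, and Psat1 is the single member with a false discovery rate under 0.05 there, at 1.59e-05 for a log2 fold change of -0.19. The authors' deposited table for HT22 cells gives a log2 fold change of 0.10 with a false discovery rate of 0.000953 for Hspa5, whose ratio from the counts was -0.04, and 0.16 with 0.0144 for Phgdh. For Psat1 it gives 0.06, where the counts gave -0.05, and for Atf4 -0.05, where the counts gave -0.26. The control level that this table implies for Hspa5, 957 CPM, lies below both its level in HT22 SUP, 1030 CPM, and its level in HT22 CON, 1060 CPM. The same held for Psat1 and Asns, and for 4.78% of 8681 genes with at least 200 reads in both libraries the implied level lay outside the range of the 2 libraries by over 2%. For the hippocampus 0 of 11111 genes did. The deposited HT22 values differed from log2 HT22 SUP over HT22 CON with an SD of 0.125 over 8681 genes. From log2 HT22 SUP over the sum of both libraries they differed with an SD of 0.041. Their sign was opposite to that of the counts for 721 of 10854 measured genes, against 0 of 13392 in the hippocampus. The sources used here do not say how the deposited HT22 fold changes were formed, and neither table's false discovery rates rest on replicate libraries.

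**Figure D3:**
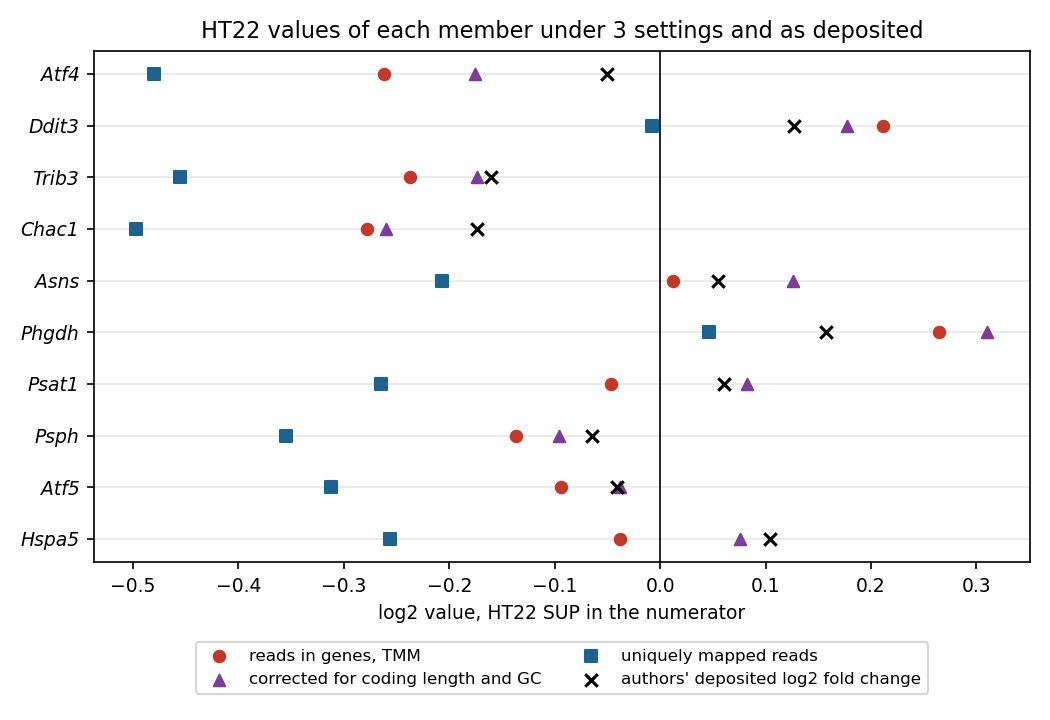
Log2 values with HT22 SUP in the numerator (horizontal) for each gene, as computed from reads in genes with TMM scaling, with length and GC content adjusted for, with uniquely mapped reads as the scaling, and as deposited by the authors. Atf4, Trib3, Chac1, Psph and Atf5 lie below 0 in all 4 sets and Phgdh above 0 in all 4, while Ddit3, Asns, Psat1 and Hspa5 lie on both sides.

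Shares past 1.5-fold were counted over 7 lists of genes upstream and downstream of ATF4. They were near those of all measured genes, except the share higher in HT22 cells, which was below its background. In the hippocampus 1 of 83 measured list genes was higher (1.2%, against 1.8% of all) and 0 were lower (against 0.904% of all). In HT22 cells 0 of 79 were higher (against 5.13% of all) and 3 were lower (3.8%, against 2.89% of all). Of the 12 genes of the eIF2α step, all were measured in both comparisons. In the hippocampus 0 passed 1.5-fold and the median was -0.05. Eif2ak2, the kinase PKR that senses double-stranded RNA, had 218 reads in F1m-GCS and 175 in F1m-CON, at 0.37 (0.08 to 0.67), and Eif2ak4, the kinase GCN2 that senses uncharged tRNA, had 1260 and 1095 reads in F1m-GCS and F1m-CON, at 0.26 (0.14 to 0.37). Ppp1r15a, the stress-induced phosphatase subunit GADD34 that reverses the phosphorylation, had 553 reads in F1m-GCS and 705 in F1m-CON, at -0.30 (-0.46 to -0.13). In HT22 cells 1 of the 12 was lower, Eif2ak3, the kinase PERK of the endoplasmic reticulum, with 330 reads in HT22 SUP and 701 in HT22 CON, at -0.60 (-0.80 to -0.41). The median of the 12 there was 0.02.

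Of 10 other transcription factors and stress effectors of the pathway, 7 were measured in each comparison. In HT22 cells 1 was lower, Ddit4, an inhibitor of mTORC1, with 607 reads in HT22 SUP and 1393 in HT22 CON, at -0.71 (-0.85 to -0.58). Vldlr and the stress sensor gene Sesn2 had -0.24 and -0.19 in HT22 cells, and Stc2 had 0.36 (-0.06 to 0.79). The C/EBP genes, partners of ATF4 on DNA, had -0.07 (-0.15 to 0.02) for Cebpb and -0.0024 for Cebpg. Atf3 was listed at 0 reads in both HT22 libraries, which allows up to 0.227 CPM in HT22 SUP and 0.164 CPM in HT22 CON, and at 18 reads in F1m-GCS and 32 in F1m-CON. In the hippocampus 0 of 7 passed 1.5-fold, with Cebpb at -0.25 (-0.53 to 0.03), Stc2 at 0.18 and Vldlr at 0.16 (0.09 to 0.22).

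Amino acid transporters had 0 members past 1.5-fold, of 10 measured in the hippocampus and 9 in HT22 cells. Slc7a11, the cystine and glutamate exchanger, had 1331 reads in F1m-GCS and 1069 in F1m-CON, at 0.37 (0.25 to 0.49), and 307 reads in HT22 SUP and 504 in HT22 CON, at -0.23 (-0.44 to -0.02). The difference between the 2 sources was not tested. Slc1a5, a glutamine carrier, had -0.23 (-0.64 to 0.17) in the hippocampus, and Slc7a3 had 0.09. In HT22 cells the glycine transporter gene Slc6a9 had 0.28 (0.11 to 0.45) and Slc1a4, which carries alanine, serine and cysteine, -0.27 (-0.42 to -0.13). Other enzymes of amino acid synthesis also had 0 past 1.5-fold, of 8 measured in the hippocampus and 7 in HT22 cells. Their lowest in HT22 cells was Cth, which makes cysteine from cystathionine, at -0.40 (-0.54 to -0.26), and Got1 had -0.25. In the hippocampus the proline enzyme gene Pycr1 had 0.40 (0.0050 to 0.81) on 120 and 94 reads in F1m-GCS and F1m-CON and Cth -0.23.

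Enzymes that use serine and carry its one-carbon units held, of these lists, the gene farthest from 0 in each comparison. In the hippocampus 1 of 14 measured was higher, the mitochondrial formyltetrahydrofolate dehydrogenase gene Aldh1l2, with 313 reads in F1m-GCS and 214 in F1m-CON, at 0.60 (0.35 to 0.86). This call was lost with a prior count of 10, with uniquely mapped reads, with length and GC content adjusted for, and where the whole interval had to pass 1.5-fold. Of the 14, 10 were below 0, with a median of -0.11. Shmt2, which takes a carbon from serine in mitochondria, had 637 reads in F1m-GCS and 820 in F1m-CON, at -0.31 (-0.46 to -0.16). In HT22 cells 1 of 12 was lower, Mthfd2l, a mitochondrial methylenetetrahydrofolate dehydrogenase, with 155 reads in HT22 SUP and 359 in HT22 CON, at -0.72 (-1.01 to -0.45), and it had -0.44 (-0.78 to -0.10) in the hippocampus. Ddit4, of another list, lay close to Mthfd2l in HT22 cells, at -0.71 (-0.85 to -0.58). Where the whole interval had to pass 1.5-fold, none of Mthfd2l, Ddit4 and Eif2ak3 kept its call. With length and GC content adjusted for, Mthfd2l lost its call, while Ddit4 and Eif2ak3 kept theirs. Aldh1l2 had -0.23 (-0.35 to -0.12), Shmt1 -0.31 (-0.41 to -0.20) and Shmt2 0.13 (0.07 to 0.19) in HT22 cells.

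Genes of endoplasmic reticulum stress and folding, the group around Hspa5, had 0 of 20 past 1.5-fold in either comparison, with medians of 0.01 in the hippocampus and -0.02 in HT22 cells. Xbp1, a transcription factor of the unfolded protein response, had 2230 reads in F1m-GCS and 2736 in F1m-CON, at -0.24 (-0.32 to -0.16), and 1256 reads in HT22 SUP and 2221 in HT22 CON, at -0.34 (-0.44 to -0.24). Sdf2l1 had -0.33 (-0.57 to -0.10) in the hippocampus and -0.43 (-0.62 to -0.25) in HT22 cells. The co-chaperone gene Dnajb9 had -0.01 in the hippocampus and, with 194 reads in HT22 SUP and 389 in HT22 CON, -0.52 (-0.78 to -0.27) in HT22 cells. Hsp90b1 had 0.17 (0.12 to 0.22) in the hippocampus and 0.22 (0.19 to 0.25) in HT22 cells. Pdia4, a disulfide isomerase, had -0.19 and -0.13. The cytosolic aminoacyl-tRNA synthetases had 0 of 12 past 1.5-fold in either comparison, with medians of -0.08 in the hippocampus and 0.03 in HT22 cells. In the hippocampus Gars had -0.14, Cars -0.14 and Nars -0.12, and in HT22 cells Eprs had 0.30 (0.25 to 0.36), Lars 0.14 and Aars 0.12.

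**Figure D4:**
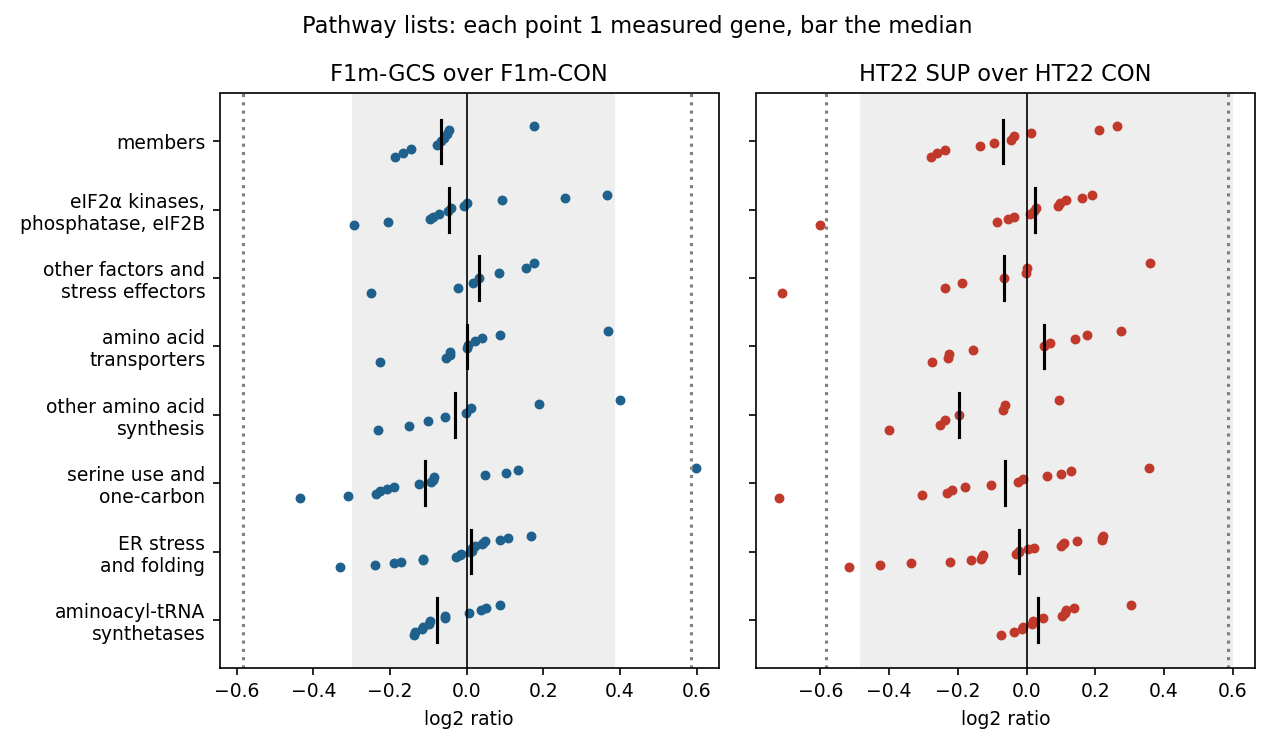
Log2 ratio (horizontal) of each measured gene, 1 point per gene, for the members and 7 lists of pathway genes, in F1m-GCS over F1m-CON on the left and HT22 SUP over HT22 CON on the right. Black bars are medians, the grey band holds the 5th to 95th percentile of all measured genes, and dotted lines mark 1.5-fold. The points beyond a dotted line are Aldh1l2 at 0.60 on the left, and Mthfd2l at -0.72, Ddit4 at -0.71 and Eif2ak3 at -0.60 on the right.

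The lists also differed between cell line and tissue. Of 12 aminoacyl-tRNA synthetase genes 10 were at least 2-fold higher in both HT22 libraries than in both hippocampus libraries, as were 6 of 12 genes of the eIF2α step, 11 of 20 folding genes, 7 of 14 serine and one-carbon genes, 3 of 8 other amino acid enzymes, 3 of 7 other factors and 2 of 10 transporters, with 27.4% of all genes as the background. By the same rule 4 of 14 serine and one-carbon genes, 3 of 8 other amino acid enzymes, 2 of 20 folding genes, 1 of 7 other factors and 1 of 10 transporters were lower, and 0 of the synthetases and of the eIF2α step, with 36.2% of all genes as the background. The transporters' higher count, 2 of 10, was near its background of 27.4%, on the lower side. The 3 genes nearest to Atf4 over 3 log2 ratios (F1m-GCS over F1m-CON, HT22 SUP over HT22 CON, and HT22 over hippocampus), among 9812 genes with at least 50 reads in every library, were Suv39h2, 4930523C07Rik and Prelp, at Euclidean distances of 0.0227, 0.0408 and 0.0477. None of the 3 is in the lists above.

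Reads in genes numbered 30265820 in F1m-GCS, 31175015 in F1m-CON, 13192007 in HT22 SUP and 18305096 in HT22 CON, and the 10 genes together made up 706 CPM in F1m-GCS, 752 in F1m-CON, 3040 in HT22 SUP and 3220 in HT22 CON, before TMM scaling.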

How the data were processed

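The count columns are the authors' raw reads per gene, and the RPKM columns their reads per kilobase of coding length and scaled to uniquely mapped reads, per the file headers. The authors also deposited log2 fold changes with a p-value and false discovery rate per gene, made with edgeR per the series' design text. Per the series' design text, reads were trimmed with Trim Galore, aligned to mm10 with TopHat2 and counted with HTSeq, with versions not given in the sources used here. CASAVA 1.8 is named in the submitters' processing notes.

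Log2 ratios were computed from the counts with TMM factors (edgeR 4.0.16, R 4.3.3) and a prior count of 2. Intervals are exact conditional (Clopper-Pearson) 95% intervals of the ratio of 2 counts, from scipy 1.17.1 under Python 3.11.15. Ratios to Atf4 have exact conditional odds ratio intervals, and the background of all genes for them used normal (Woolf) intervals, which gave the same calls for the members. Genes that reached 50 reads in either library were measured, and called at 1.5-fold with an interval without 0. HT22 over hippocampus used TMM factors over 4 libraries and 0.1 CPM added to each mean. The functions were tested on simulated counts.

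The members and lists were chosen with earlier results of these data known. Named are all members, every list gene past 1.5-fold, and otherwise up to 3 per list farthest from 0, plus the 3 genes nearest to Atf4. Of the genes this rule names, 1 is not reported here. Chosen after their values were seen were Atf3, Cebpg, Sesn2, Shmt1, Shmt2 and Hsp90b1. The same holds in HT22 cells for Cebpb, Vldlr, Stc2, Aldh1l2 and Pdia4, and in the hippocampus for Mthfd2l and Dnajb9. Alternatives were total counts, size factors from DESeq2 1.42.0, a prior count of 0.25 or 10, a minimum of 10 or 200 reads, a rule on the whole interval, a correction by 10 coding length and 5 GC groups (GENCODE M21, GC for 21096 genes), and, for HT22 cells, subtraction of 0.768% (SUP) and 0.321% (CON) of the hippocampus level, the shares over 689 genes picked as 100 times higher in hippocampus, which is no upper limit on hippocampus RNA. Scaling to uniquely mapped reads and a median without Phgdh, Psph, Atf5 and Ddit3 were added after the data were seen.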

Additional observations from a re-analysis of the deposited data

How the results depend on the processing

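No paired analysis was possible because each group held 1 library, and for the same reason no replicate could be left out. The count of members past 1.5-fold was 0 in each direction and in both comparisons under every alternative run, and 10 of 10 members stayed at least 2-fold higher in the HT22 libraries under the 4 scalings. The count of pathway list genes higher in the hippocampus, 1 (Aldh1l2), was 0 with a prior count of 10, with the whole interval beyond 1.5-fold, after the correction for coding length and GC, and with uniquely mapped reads. The count of pathway list genes lower in HT22 cells, 3, was 0 with the whole interval beyond 1.5-fold, 2 after the correction (without Mthfd2l) and 6 with uniquely mapped reads. The median of the members in HT22 cells, -0.07, was -0.29 with uniquely mapped reads, beside a median of -0.27 over all measured genes, and 0.02 after the correction. Without Phgdh, Psph, Atf5 and Ddit3, an alternative added after the data were seen as was uniquely mapped reads, it was -0.14. In the hippocampus the sign of Ddit3 and Atf5 changed under the correction, to 0.05 (-0.11 to 0.20) and 0.02 (-0.14 to 0.18). The cause of these changes was not tested. Read numbers limit Trib3 in the hippocampus, where 18 and 17 reads give an interval that still holds a 2-fold higher level.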
